A study of Mus musculus with 16 samples.

Results

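The acid response shared by both genotypes was measured in cultured primary macrophages resident in the mouse peritoneal cavity, as the difference between all arrays at pH 6.7 and all arrays at pH 7.7 with genotype held as a covariate. All 16 of the 16 arrays of the series entered it, 8 at pH 6.7 and 8 at pH 7.7, so it is the average of the change in mice lacking Ogr1 (KO, -/-) and the change in wild-type mice (WT, +/+). The groups were KO at pH 6.7, KO at pH 7.7, WT at pH 6.7 and WT at pH 7.7, with 4 arrays each. All cells came from C57BL/6 mice and were kept for 24 h in RPMI medium with 10% FCS at the stated pH. The sample names give the pH as 6.7 and 7.7, which are used here, while the treatment text gives 6.8 and 7.6. No array was taken at a pH between these, so a gain under acid and a loss under the alkaline medium cannot be told apart. Ogr1 is a G protein-coupled receptor that is activated by protons. The targeted gene is not analysed here, the labels do not describe how the allele was made, and no age of the mice was found in the labels. Whether the 4 arrays of a group hold RNA of different mice is not stated either, so the p-values rest on a spread between arrays that may be technical.

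Extracellular acid is common in inflamed tissue, where glycolytic cells release protons and lactate. Macrophages meet it with proton-sensing receptors and ion channels, with transporters that export acid, and with broad changes in metabolism and stress signalling. Cholesterol synthesis is under the control of the SREBP transcription factors, which are held in the endoplasmic reticulum (ER) when sterols are plentiful. The unfolded protein response, also seated in the ER, raises chaperones when protein folding there is strained.

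Values are log2 of the intensity deposited by the authors, averaged over all probe sets of a gene, and a log2 fold change is the value at pH 6.7 minus the value at pH 7.7. Of 20848 genes, 8783 had a mean over the 16 arrays above that of the median probe set (3.07) and were tested. The typical array median was 3.07 as well, and no detection call was used, so for genes whose lower arrays lie near or under that level the fold change describes the deposited values only. Defining macrophage transcripts lay far above it, with means over the 16 arrays of 8.62 for Csf1r, the receptor for macrophage colony-stimulating factor, 10.3 for Cd68 and 10.4 for Lyz2, the lysozyme of myeloid cells. Gata6, the transcription factor of large peritoneal macrophages, averaged 5.59. One array stood apart, WT pH 7.7 replicate 2, whose median Pearson correlation with the other arrays was 0.883, against 0.907 to 0.923 for the other 15. The number of arrays limits the precision. In bulk samples such as these, fewer cells of a type and less RNA per cell cannot be told apart.

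The shared response reached many genes, and more of them rose than fell. At an adjusted p under 0.05 (limma, Benjamini-Hochberg over all 8783 genes), 1810 genes (20.6%) changed, of which 1288 (14.7%) rose and 522 (5.94%) fell at pH 6.7. The changes were mostly small: the median size among the called genes was 0.36 on the log2 scale, and 26 genes rose and 16 fell by more than 1. The 8 arrays at pH 6.7 were all above or all below the 8 at pH 7.7 in 369 called genes (4.2%), 285 of them higher and 84 lower. On the first principal component of the tested genes, which held 26% of the variance, the arrays at pH 6.7 lay between 4.73 and 15.42 and those at pH 7.7 between -19.65 and -8.31, so the pH groups did not overlap there. The median log2 fold change of all tested genes was 0.05. When the arrays were quantile normalised again, 61.1% of the calls were higher, against 71.2% with the values as deposited. With each gene represented by its brightest probe set in place of the mean of all its probe sets, 486 of 14581 tested genes passed. Of these, 255 were higher (1.75%) and 231 lower (1.58%), and 347 of the 486 were among the 1810 and in the same direction. List counts by the brightest probe set stand against these shares, and not against 14.7% and 5.94%. Genes that missed the threshold in that way are named beside their results, as calls that rest on the mean.

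The 1810 genes were chosen on the average of both genotypes, so their sign in each is a part of that choice. Within KO 1241 genes (14.1%) passed and within WT 916 (10.4%), in a model whose estimate of the spread is shared by all 16 arrays. Of the shared calls 393 passed in both of these contrasts. A further 534 passed in KO only, 359 in WT only and 524 in neither, where only the average of both genotypes reached the threshold. The KO arrays and the WT arrays are separate samples, and genes called in one genotype alone can be looked up in the other. In a fit to the 8 WT arrays alone, 290 genes rose, and 273 of these (94.1%) were also higher at pH 6.7 in the KO arrays, against 61.5% of all tested genes. Of the 1126 genes that rose in a fit to the 8 KO arrays alone, 934 (83.0%) were higher in WT, against 55.6% of all tested genes. For genes that fell the shares were 126 of 152 (82.9%) from WT to KO and 335 of 423 (79.2%) from KO to WT, against 38.5% and 44.5% of all tested genes. Across the 8783 genes the change in KO and the change in WT had a Pearson r of 0.43 and a Spearman rho of 0.41, where the genes of a genotype share the same 8 arrays.

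**Figure D1:**
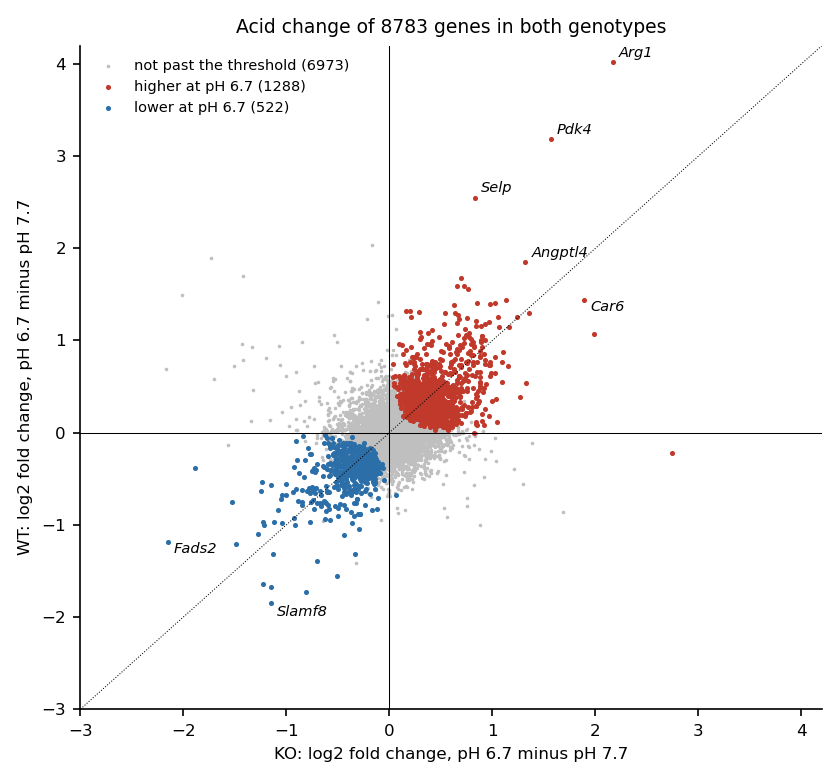
Log2 fold change (pH 6.7 minus pH 7.7) in KO on the horizontal axis and in WT on the vertical axis for 8783 genes, with the 1288 genes that rose and the 522 that fell in colour; the dotted line marks equal change. The coloured genes were chosen on the average of both axes, and Arg1, Pdk4 and Selp lie above the line.

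Arg1 had the largest rise of any tested gene. It encodes arginase, which turns arginine into ornithine and urea and marks alternatively activated macrophages. Its lowest, median and highest log2 intensities were 6.48, 7.30 and 8.20 at pH 6.7, against 3.36, 4.18 and 5.70 at pH 7.7, so every acid array exceeded every alkaline one. The log2 fold change was 3.09 ± 0.34 (SE, 8 arrays per pH, adjusted p = 1e-05), an 8.54-fold difference, with 2.17 in KO and 4.02 in WT. Car6, a secreted carbonic anhydrase that interconverts carbon dioxide and bicarbonate, had the smallest p of all tested genes. Its arrays lay at 5.80, 6.11 and 6.47 at pH 6.7, against 4.12, 4.50 and 4.85 at pH 7.7, again with no overlap (log2 fold change 1.67 ± 0.11, adjusted p = 7.08e-08).

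The other leading increases had varied roles. Angptl4, an inhibitor of lipoprotein lipase, had values of 3.57, 4.19 and 5.62 at pH 6.7, against 2.38, 2.80 and 3.22 at pH 7.7 (log2 fold change 1.59 ± 0.23, adjusted p = 0.000129). Ltc4s, the synthase of leukotriene C4, lay at 5.39, 5.74 and 6.42 at pH 6.7, against 3.82, 4.54 and 4.89 at pH 7.7 (1.32 ± 0.16). Abcd2, a peroxisomal transporter of very long-chain fatty acids, rose by 1.16 on the log2 scale and Phyhd1, a dioxygenase related to the enzyme of phytanic acid breakdown, by 1.25. The 12 largest increases among genes whose pH groups did not overlap also held Epb41l3, which links membrane proteins to the cytoskeleton (1.28), Padi4, a peptidylarginine deiminase (1.18), the scavenger receptor Marco (1.15), the globin-like Adgb (1.13), the opposite-strand transcript Sp3os (1.11), and Plcb1, a phospholipase C coupled to Gq (1.08). With the brightest probe set as the gene's value, Marco (0.18), Sp3os (0.01), Padi4 (0.82) and Adgb (1.05) did not pass, with adjusted p from 0.0516 to 0.989.

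Of the 12 largest decreases among genes without overlap, 6 were enzymes of cholesterol synthesis and the largest was a fatty acid desaturase. Fads2, which introduces double bonds into polyunsaturated fatty acids, lay at 2.28, 2.79 and 3.46 at pH 6.7, against 3.50, 4.72 and 5.01 at pH 7.7 (log2 fold change -1.67 ± 0.20, adjusted p = 1.95e-05). Slamf8, a receptor of the SLAM family on macrophages, lay at 3.30, 3.76 and 4.49 at pH 6.7, against 4.68, 5.38 and 5.57 at pH 7.7 (-1.50 ± 0.15). These groups did not overlap for either gene. Further surface or signalling genes followed: Scimp, an adaptor of Toll-like receptor signalling, with a log2 fold change of -1.27, Clec5a, a C-type lectin receptor of myeloid cells, with -1.23, and Lrrc32, which holds latent TGF-beta at the cell surface, with -1.14. S100a4, a small calcium-binding protein, had narrow groups, at 6.65, 7.14 and 7.26 at pH 6.7, against 7.98, 8.11 and 8.36 at pH 7.7 (-1.05 ± 0.09, adjusted p = 8.58e-07). Scimp did not pass by its brightest probe set (-1.14, adjusted p = 0.0716).

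**Figure D2:**
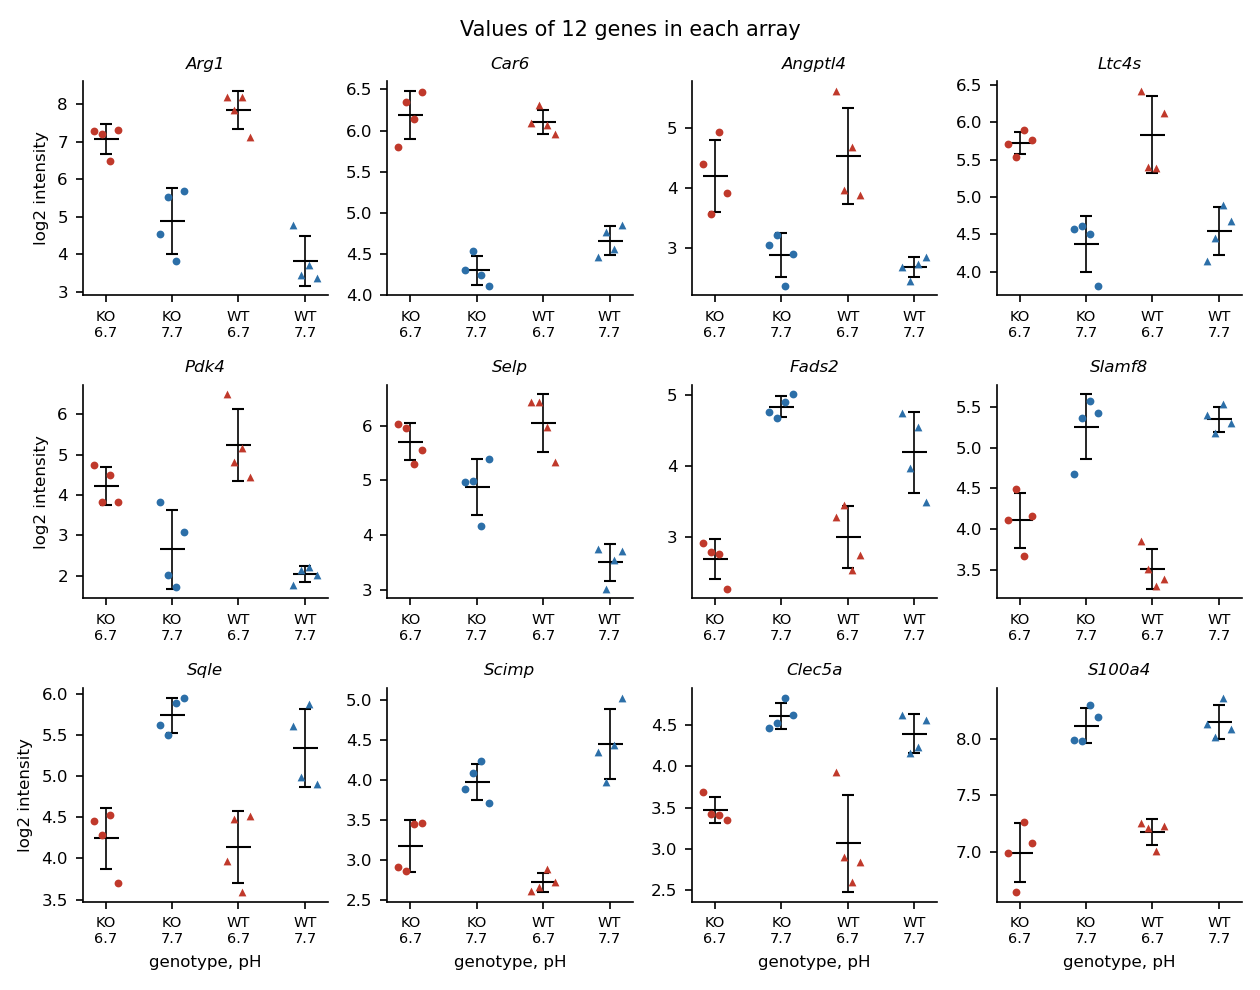
Log2 intensity of 12 genes in each array, with KO at pH 6.7 and pH 7.7 left of WT at pH 6.7 and pH 7.7; circles are KO arrays, triangles WT arrays, and bars the mean ± SD of 4 arrays. Arg1, Pdk4 and Selp had wider groups than Car6 or S100a4.

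The cholesterol pathway fell nearly as a whole. Of the 18 tested enzymes, 15 fell, 0 rose and 3 did not pass, 83.3% against 5.94% of all tested genes, and the median log2 fold change was -0.79, against 0.05 for all tested genes. With any 1 array left out, between 13 and 16 fell. The first steps, which build mevalonate and turn it into isoprenoid units, had Hmgcs1, the HMG-CoA synthase, at 4.27, 4.71 and 4.98 at pH 6.7, against 5.22, 5.89 and 6.06 at pH 7.7 (log2 fold change -1.11 ± 0.12, adjusted p = 6.23e-06). Mevalonate kinase, Mvk, lay at 3.17, 3.19 and 3.33 at pH 6.7, against 3.79, 3.91 and 4.17 at pH 7.7 (-0.74 ± 0.07), and neither gene's groups overlapped. Further down this branch, Idi1, the isopentenyl diphosphate isomerase, fell by 1.41 on the log2 scale and Fdps, the farnesyl diphosphate synthase, by 0.92. The kinase Pmvk (-0.35, adjusted p = 0.0353) and the decarboxylase Mvd (-0.35, adjusted p = 0.0372) fell least and missed the threshold when single arrays were left out, Pmvk with 8 of the 16 arrays (adjusted p up to 0.0694) and Mvd with 9 (up to 0.0773). Ggps1, which leads away from sterols to geranylgeranyl groups, was the only tested member with a positive value (0.18 ± 0.08, adjusted p = 0.136).

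The sterol branch itself fell in the same range. Fdft1, the squalene synthase, lay at 5.36, 5.74 and 6.00 at pH 6.7, against 6.22, 6.72 and 7.12 at pH 7.7 (-1.01 ± 0.12). Sqle, the squalene epoxidase, lay at 3.59, 4.37 and 4.53 at pH 6.7, against 4.90, 5.61 and 5.95 at pH 7.7 (-1.35 ± 0.17, adjusted p = 2.79e-05). Lss, which closes the sterol rings, lay at 2.87, 2.98 and 3.33 at pH 6.7, against 3.63, 4.30 and 4.67 at pH 7.7 (-1.19 ± 0.12). The arrays of the pH groups were apart in all 3 genes, and the acid values of Lss reached under the array median. Of the enzymes that trim lanosterol, Cyp51 fell by 1.43 on the log2 scale, Hsd17b7 by 1.10, Sc5d by 0.79, Msmo1 by 0.78, Nsdhl by 0.50 and Dhcr7 by 0.42. Tm7sf2 (-0.25 ± 0.13) and Ebp (-0.21 ± 0.12) did not pass. By the brightest probe set 10 of the 18 fell, against 1.58% of all genes in that setting. Mvk, Mvd, Nsdhl, Sc5d and Dhcr7 did not pass there (adjusted p from 0.0567 to 0.14). None of the 18 passed the test of a difference between genotypes (limma interaction, adjusted p from 0.317 to 0.996), and the list's median was -0.85 in KO and -0.84 in WT. The summed linear intensity of the 18 genes was 395 to 571 over the arrays at pH 6.7, against 571 to 1045 at pH 7.7.

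**Figure D3:**
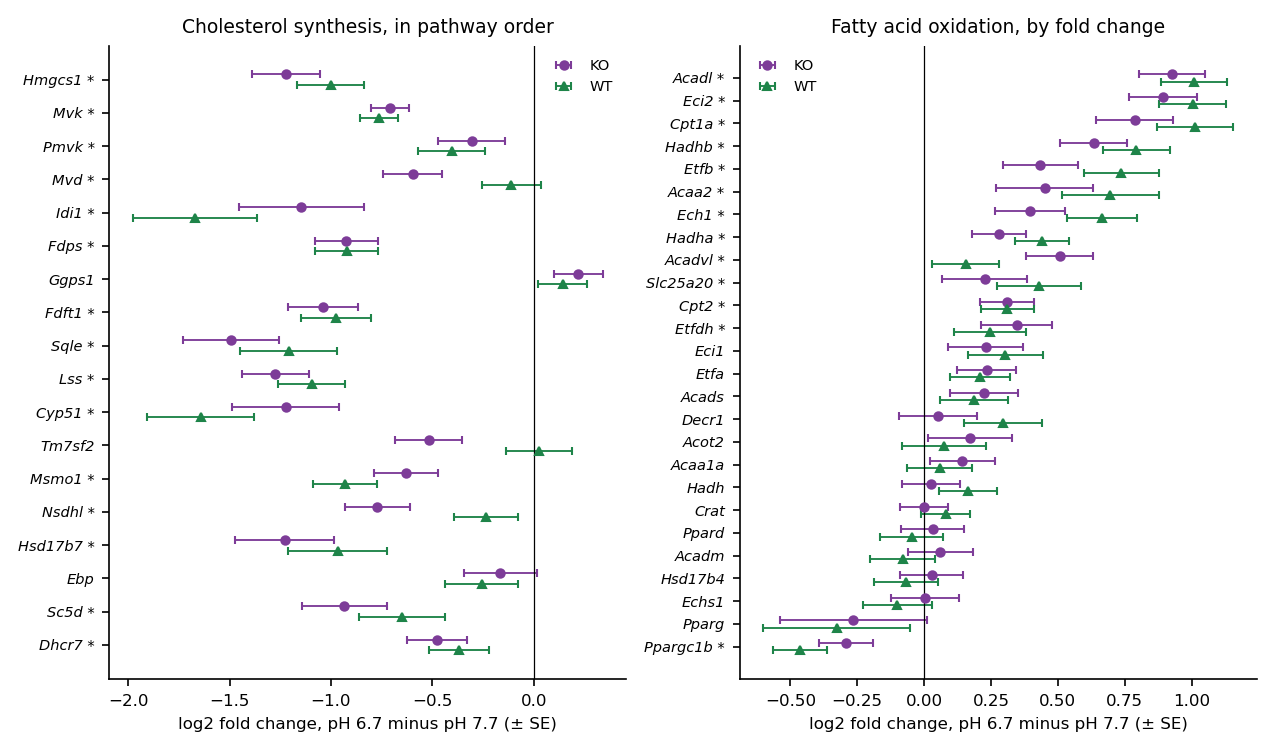
Log2 fold change (pH 6.7 minus pH 7.7, ± SE) in KO (circles) and WT (triangles) for the 18 tested enzymes of cholesterol synthesis in pathway order and the 26 tested genes of fatty acid oxidation; asterisks mark genes past the threshold in the shared response. All but Ggps1, and Tm7sf2 in WT, of the sterol enzymes lie left of 0, and 12 genes of oxidation lie to the right with an asterisk.

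Promoter sequence was read for these genes from RefSeq (GRCm38.p6, 250 bases before to 50 after each gene's start). A CCAAT box, the site of the NF-Y factor that works beside SREBP, was found on either strand in all 15 cholesterol genes with a window, against 42.3% of 7044 tested genes with one. The sterol element in the form TCACNCCAC was found in 1 of the 15, against 1.28%, and the match describes these letters and not a site in use. It lies in the promoter of Hmgcs1 at chr13:119690188-119690248 (plus strand), printed with the element in capitals because this gene fell by 1.11. The CCAAT boxes nearest the start of Lss (chr10:76531517-76531573, plus strand) and Msmo1 (chr8:64733603-64733659, minus strand) are shown with it, again in capitals and 5′ to 3′ along the gene; in Lss it lies on the other strand and reads ATTGG.
Hmgcs1: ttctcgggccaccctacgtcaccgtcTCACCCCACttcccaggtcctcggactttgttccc
Lss: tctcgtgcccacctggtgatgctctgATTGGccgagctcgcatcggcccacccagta
Msmo1: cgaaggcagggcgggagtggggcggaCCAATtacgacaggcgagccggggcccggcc

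Genes that govern the pathway or take up sterol moved with it in part. Of 11 tested genes of SREBP control and uptake, 4 fell and 2 rose (36.4% lower against 5.94% of all tested genes, median -0.10); by the brightest probe set 3 of 12 fell. Insig1, a sterol sensor of the ER that is itself an SREBP target, lay at 7.54, 7.75 and 8.19 at pH 6.7, against 7.76, 8.71 and 8.90 at pH 7.7 (-0.72 ± 0.13, adjusted p = 0.000789). Stard4, a carrier of sterol between membranes, fell by 0.82 on the log2 scale and Srebf2, the SREBP of the cholesterol genes, by 0.46. Mylip, the ligase that marks the LDL receptor for breakdown and an LXR target, was higher in every acid array, at 6.33, 6.41 and 6.57, against 5.88, 6.03 and 6.28 at pH 7.7 (0.39 ± 0.07, adjusted p = 0.000729). The classical LXR targets of efflux did not pass: Abca1 had 0.29 ± 0.12 (adjusted p = 0.0865) and Abcg1 -0.01 ± 0.07. Of 12 tested LXR genes 2 fell (16.7%) and 1 rose (8.33%, against 14.7% of all tested genes). Those that fell included Nr1h3, which encodes LXR alpha (-0.53 ± 0.13). Cd5l, a secreted protein of tissue macrophages and an LXR target, was the one that rose (1.19 ± 0.26, adjusted p = 0.00397). Mylip (0.39, adjusted p = 0.152) and Srebf2 (-0.22, adjusted p = 0.427) did not pass by their brightest probe sets.

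Parts of fatty acid synthesis fell, and parts of oxidation and storage rose. Of 13 tested genes of synthesis and desaturation 6 fell and 0 rose (46.2% against 5.94% of all tested genes, median -0.35), and the other 7 did not pass. In the brightest-probe-set values 3 of 16 fell, against 1.58% of all genes in that setting. Beside Fads2 they included Fasn, the fatty acid synthase, at 3.56, 3.82 and 4.10 at pH 6.7, against 4.26, 4.72 and 5.03 at pH 7.7 (-0.84 ± 0.11, adjusted p = 6.38e-05), the desaturase Scd2 (-0.96 ± 0.16) and the elongase Elovl1 (-0.49 ± 0.08). Fasn did not pass by its brightest probe set (-0.64, adjusted p = 0.0728). Scd1 had -0.49 ± 0.19 and did not pass (adjusted p = 0.075), nor did the carboxylase Acaca (-0.26 ± 0.12).

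Of 26 tested genes of fatty acid oxidation, 12 rose, 1 fell and 13 did not pass, 46.2% higher against 14.7% of all tested genes (median 0.24). With any 1 array left out, 10 to 14 rose, and by the brightest probe set 5 of 30, against 1.75% of all genes in that setting. Cpt1a, which admits long-chain fatty acids to mitochondria and sets the pace of oxidation, lay at 6.28, 6.45 and 6.88 at pH 6.7, against 5.19, 5.54 and 5.84 at pH 7.7 (0.90 ± 0.10, adjusted p = 1.32e-05). Acadl, the long-chain acyl-CoA dehydrogenase, lay at 7.05, 7.27 and 7.54 at pH 6.7, against 6.01, 6.33 and 6.51 at pH 7.7 (0.97 ± 0.09, adjusted p = 1.14e-06). The isomerase Eci2 rose by 0.95 on the log2 scale, the trifunctional protein subunits Hadhb and Hadha by 0.71 and 0.36, and the electron carrier Etfb by 0.59. The arrays of the pH groups did not overlap for Cpt1a, Acadl, Eci2, Hadhb and Etfb. The medium-chain dehydrogenase Acadm had -0.01 ± 0.09, and the coactivator Ppargc1b was the member that fell (-0.38 ± 0.07, adjusted p = 0.00139). Hadhb, Hadha and Etfb did not pass by their brightest probe sets (adjusted p from 0.0673 to 0.274).

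Of 13 tested lipid storage genes 6 rose and 2 fell, 46.2% higher against 14.7% of all tested genes and 15.4% lower against 5.94%. By the brightest probe set 3 of 19 rose, and 1 fell in place of 2 when any of 9 of the arrays was left out. Plin2, the coat protein of lipid droplets, lay at 7.50, 7.71 and 8.03 at pH 6.7, against 6.56, 6.93 and 7.14 at pH 7.7 (0.82 ± 0.09, adjusted p = 1.28e-05). Hilpda, an inhibitor of droplet lipolysis, rose by 0.88 on the log2 scale, and the triglyceride lipase Pnpla2 by 0.33 (adjusted p = 0.0671 by its brightest probe set). Pyruvate dehydrogenase kinases close the entry of pyruvate into the citrate cycle, and Pdk4, which fasting and fatty acids induce, had one of the largest changes of any gene. Its arrays lay at 3.82, 4.61 and 6.49 at pH 6.7, against 1.71, 2.08 and 3.83 at pH 7.7, overlapping narrowly and with most alkaline arrays under the array median (2.37 ± 0.35, adjusted p = 0.000129; KO 1.57, WT 3.18). Pdk1 rose by 0.42 without overlap. In all, 3 of 14 tested genes of pyruvate fate rose (21.4%, against 14.7% of all tested genes) and 0 fell.

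Central carbon and energy genes moved little. In glycolysis 1 of 19 tested genes rose (5.26%, against 14.7% of all tested genes) and 2 fell (10.5%, against 5.94%), with a median of -0.03. Slc2a6, a hexose transporter of phagocytes, was lower without overlap (-0.65 ± 0.09, adjusted p = 0.000104) and the phosphofructokinase subunit Pfkl higher (0.59 ± 0.10). Ldha, the lactate dehydrogenase of glycolytic cells, had 0.01 ± 0.10 and Gapdh -0.03 ± 0.06. In the citrate cycle 3 of 19 rose (15.8%, near the share of all tested genes), all isocitrate dehydrogenases. Idh1, the cytosolic form that makes NADPH, lay at 8.38, 8.46 and 8.51 at pH 6.7, against 7.58, 7.98 and 8.15 at pH 7.7 (0.49 ± 0.07, adjusted p = 0.000158). Of 36 tested genes of respiratory complex I 3 rose, and of 35 of complexes III to V 1 rose and 1 fell (0 to 1 and 0 to 2 with any 1 array left out), all shares below those of all tested genes. Of 45 tested ribosomal protein genes 1 rose and of 36 proteasome genes 2 fell, counts that single arrays decided (0 to 1 and 1 to 3 with any 1 array left out). Pdk1, Pfkl and Idh1 did not pass by their brightest probe sets (adjusted p from 0.0915 to 0.365).

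By the mean over probe sets, ER chaperones had the largest share of increases among those of the 57 lists with at least 10 tested genes. Of the 27 tested genes 20 rose, 0 fell and 7 did not pass, 74.1% against 14.7% of all tested genes (median 0.33), and with any 1 array left out 19 to 22 rose. Hyou1, an ER chaperone of the HSP70 class, lay at 5.34, 5.98 and 6.11 at pH 6.7, against 4.76, 5.01 and 5.22 at pH 7.7 (0.91 ± 0.09, adjusted p = 2.51e-06). Hspa5, which encodes BiP, the main chaperone and sensor of the ER, lay at 7.95, 8.11 and 8.42 at pH 6.7, against 7.04, 7.58 and 7.91 at pH 7.7 (0.58 ± 0.10, adjusted p = 0.00058), and Dnajb9, a cochaperone of BiP, rose by 0.84. Neither Hyou1 nor Hspa5 overlapped between the pH groups. Of the oxidative folding enzymes, Ero1a (0.57 ± 0.07) and the disulfide isomerase P4hb (0.38 ± 0.06) rose without overlap. Among the sensors and factors of the response, the kinase and nuclease Ern1 rose by 0.61 and its target Xbp1 by 0.28, while Atf6 had 0.07 ± 0.09. Calr, the lectin chaperone calreticulin, did not pass (0.14 ± 0.09, adjusted p = 0.328). By the brightest probe set 4 of the 27 rose, Dnajb9 and Creld2 among them, against 1.75% of all genes in that setting. The first place was lost there, as larger shares rose of p53 targets (4 of 19), fatty acid oxidation (5 of 30) and lipid storage (3 of 19). Hyou1 (0.51, adjusted p = 0.206), Hspa5 (0.35, adjusted p = 0.137), Ern1, Ero1a, P4hb, Xbp1, Pdia6 and Edem1 did not pass in that setting. In the array that stood apart, WT pH 7.7 replicate 2, Ern1 (4.51), Pdia6 (6.42) and Edem1 (5.98), a factor of ER-associated degradation, were each lower than in the other 3 arrays of the group, and without that array 19 of the 27 rose.

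Many of these promoters hold the ER stress response element, the letters CCAAT and, 9 bases on, CCACG, searched on both strands; the CCAAT box is part of it. It was found in 9 of the 24 listed genes with a window (37.5%), against 12 of the 7044 tested genes with a window (0.17%). Of those 12 genes 8 rose, against 14.7% of all tested genes, but 9 of the 12 belong to the list already described. All 12 had a positive log2 fold change, from 0.07 in Hnrnpa3 to 0.58 in Hspa5. The 3 outside the list were Alg12 (0.33, adjusted p = 0.0326), Pan2 (0.22) and Hnrnpa3. This element was chosen for the search after the values were seen, and a match is a description, not a bound site. With single arrays left out, Alg12 missed the threshold in 9 of 16 cases (adjusted p up to 0.0649). It did not pass by its brightest probe set (0.38, adjusted p = 0.382). The stretches are shown for 5 genes that rose, with the element in capitals, 5′ to 3′ along the gene: Hspa5 at chr2:34771999-34772069 (plus strand), Pdia6, a disulfide isomerase, at chr12:17266465-17266535 (plus), Dnajc3, which restrains the kinase PERK, at chr14:118937801-118937871 (plus), Creld2, a secreted ER protein, at chr15:88819494-88819564 (plus) and Syvn1, a ligase of ER-associated degradation, at chr19:6046506-6046575 (plus).
Hspa5: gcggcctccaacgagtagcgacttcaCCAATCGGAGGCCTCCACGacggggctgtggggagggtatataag
Pdia6: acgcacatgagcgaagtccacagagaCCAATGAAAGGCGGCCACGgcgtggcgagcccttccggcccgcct
Dnajc3: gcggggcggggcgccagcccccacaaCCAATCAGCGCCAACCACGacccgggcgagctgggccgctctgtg
Creld2: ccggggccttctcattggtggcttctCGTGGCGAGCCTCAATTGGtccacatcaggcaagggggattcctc
Syvn1: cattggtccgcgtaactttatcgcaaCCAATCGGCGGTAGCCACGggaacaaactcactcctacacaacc

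In Creld2 the element lies on the opposite strand and so reads in reverse. Creld2 lay at 5.67, 5.82 and 6.04 at pH 6.7, against 4.77, 5.32 and 5.61 at pH 7.7 (0.53 ± 0.10, adjusted p = 0.00161). Pdia6 had a log2 fold change of 0.38 ± 0.09, Dnajc3 of 0.36 ± 0.08 and Syvn1 of 0.28 ± 0.07, with overlapping arrays in all 3. Syvn1 did not pass by its brightest probe set (adjusted p = 0.528).

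The integrated stress response, in which the factor ATF4 raises amino acid and survival genes when translation is curbed, rose in part. Of 22 tested genes 8 rose and 1 fell (36.4% higher against 14.7% of all tested genes, median 0.12), and without WT pH 7.7 replicate 1 the count of increases was 5. Of 30 tested by the brightest probe set, 4 rose, against 1.75% of all genes in that setting. Ddit3, the transcription factor CHOP, lay at 6.66, 7.01 and 7.20 at pH 6.7, against 5.71, 6.16 and 6.43 at pH 7.7 (0.86 ± 0.10, adjusted p = 1.3e-05). Nupr1, a small stress-induced chromatin protein, lay at 6.69, 7.04 and 7.16 at pH 6.7, against 5.43, 5.96 and 6.51 at pH 7.7 (1.02 ± 0.12, adjusted p = 1.63e-05). Both were higher in every acid array. Atf5 rose by 0.61 on the log2 scale, Sesn2 by 0.53 and Trib3 by 0.51, whereas the asparagine synthetase Asns had 0.55 ± 0.22 (adjusted p = 0.0915) and Atf4 itself 0.04 ± 0.06. The amino acid transporter Slc38a2 fell by 0.46. Of the 19 tested aminoacyl-tRNA synthetases, which charge transfer RNAs, 9 rose and 0 fell (47.4% higher, median 0.32), among them Qars (0.42 ± 0.08) and Mars1 (0.49 ± 0.10), and 9 to 11 rose with any 1 array left out. By the brightest probe set 0 of the 19 rose, and Sesn2, Trib3 and Slc38a2 did not pass (adjusted p from 0.0824 to 0.34).

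**Figure D4:**
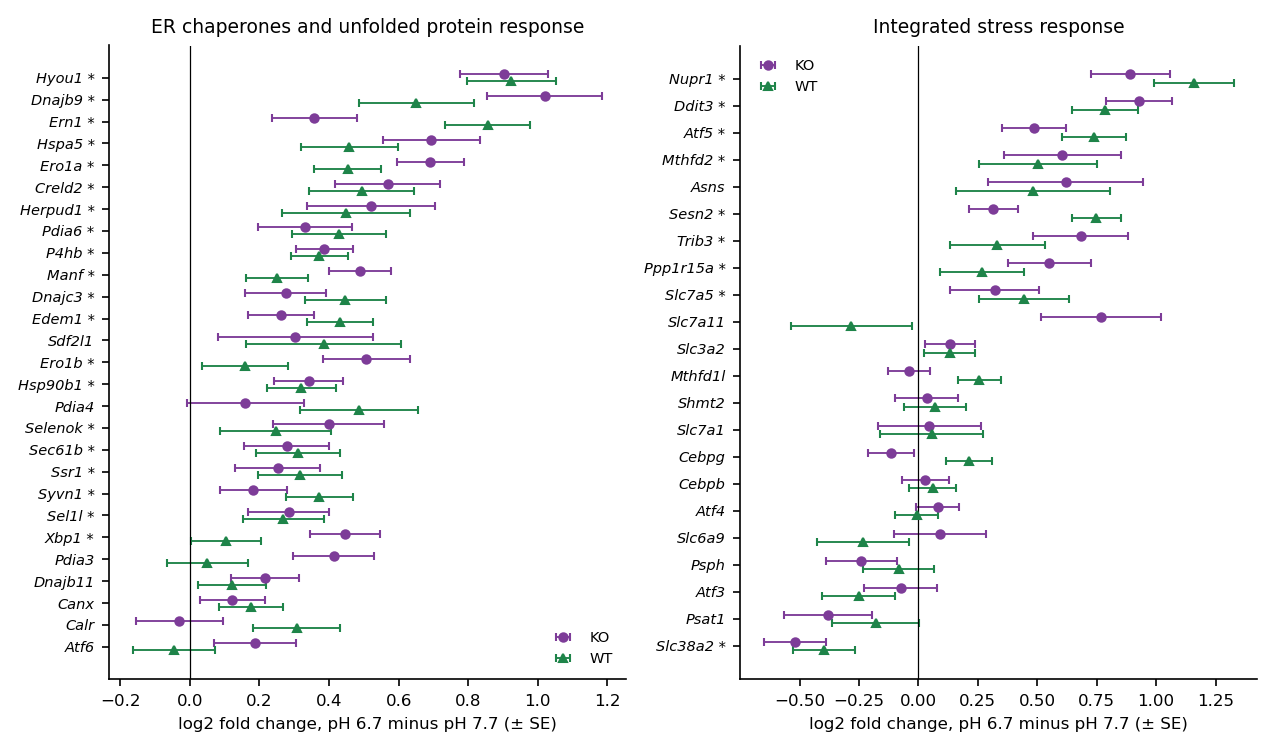
Log2 fold change (pH 6.7 minus pH 7.7, ± SE) in KO (circles) and WT (triangles) for the 27 tested genes of the ER list and the 22 of the integrated stress response; asterisks mark genes past the threshold in the shared response. In the ER list 20 genes carry an asterisk, all to the right of 0, and in the other list 8 to the right and 1 to the left.

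Other stress programmes rose in part. Of 22 tested NRF2 targets, the antioxidant genes, 9 rose and 0 fell (40.9% higher against 14.7% of all tested genes, median 0.24). By the brightest probe set 3 of 23 rose, against 1.75% of all genes in that setting. Gsr, the glutathione reductase, lay at 7.69, 7.80 and 7.91 at pH 6.7, against 7.01, 7.12 and 7.31 at pH 7.7 (0.66 ± 0.06, adjusted p = 1.26e-06). The heme oxygenase Hmox1 lay at 9.48, 9.72 and 9.93 at pH 6.7, against 9.04, 9.17 and 9.37 at pH 7.7 (0.52 ± 0.07), and both genes' groups were apart. Gclm, a subunit of the first enzyme of glutathione synthesis, rose by 0.58, while Nqo1, a reductase often used as an NRF2 readout, had -0.31 ± 0.22. Of 19 tested targets of hypoxia-inducible factors 7 rose and 0 fell (36.8% higher, median 0.19). By the brightest probe set 2 of 23 rose, again against 1.75% of all genes. Vegfa, the vascular growth factor, lay at 6.88, 7.08 and 7.39 at pH 6.7, against 5.99, 6.17 and 6.51 at pH 7.7, with no overlap (0.90 ± 0.09, adjusted p = 2.62e-06). The collagen hydroxylase P4ha1 rose by 0.70 and Bnip3, a mitophagy receptor, by 0.43, while the glucose transporter Slc2a1 had -0.11 ± 0.10. By the brightest probe set Hmox1, P4ha1, Gclm and Bnip3 did not pass (adjusted p from 0.0789 to 0.331).

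Of 15 tested p53 targets 5 rose and 1 fell, 33.3% higher against 14.7% of all tested genes and 6.67% lower against 5.94% (median 0.07). Gdf15, a circulating stress cytokine, lay at 4.39, 4.63 and 4.85 at pH 6.7, against 3.06, 3.62 and 4.25 at pH 7.7 (1.0 ± 0.13, adjusted p = 6.07e-05), and Gadd45a, a growth arrest gene, rose by 0.78 without overlap. Cdkn1a, the cell cycle inhibitor p21, had 0.19 ± 0.08 (adjusted p = 0.105). Immediate early genes went both ways, with 5 of 21 higher (23.8%) and 4 lower (19%), and 1 of 28 in each direction by the brightest probe set. Egr1, an early transcription factor, lay at 4.15, 4.58 and 5.13 at pH 6.7, against 3.20, 3.61 and 3.93 at pH 7.7 (0.96 ± 0.13, adjusted p = 6.38e-05), and the orphan receptor Nr4a1 rose by 0.96. Jun, the AP-1 subunit, was lower in every acid array, at 6.00, 6.83 and 6.97, against 7.20, 7.35 and 7.63 at pH 7.7 (-0.69 ± 0.11). Of 13 tested genes of cAMP and AP-1 signalling 6 rose (46.2%, median 0.28; by the brightest probe set 1 of 17), among them the phosphodiesterase Pde3b (0.85 ± 0.11) and the clock gene Per1 (0.57 ± 0.09). Nr4a1, Pde3b and Per1 did not pass by their brightest probe sets (adjusted p from 0.101 to 0.17). Of 14 tested heat shock genes 2 rose (14.3%, near the share of all tested genes), the mitochondrial chaperone Hspa9 (0.38 ± 0.10) and the heat shock factor Hsf1 (0.36 ± 0.07, adjusted p = 0.0016; brightest probe set, 0.216).

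**Figure D5:**
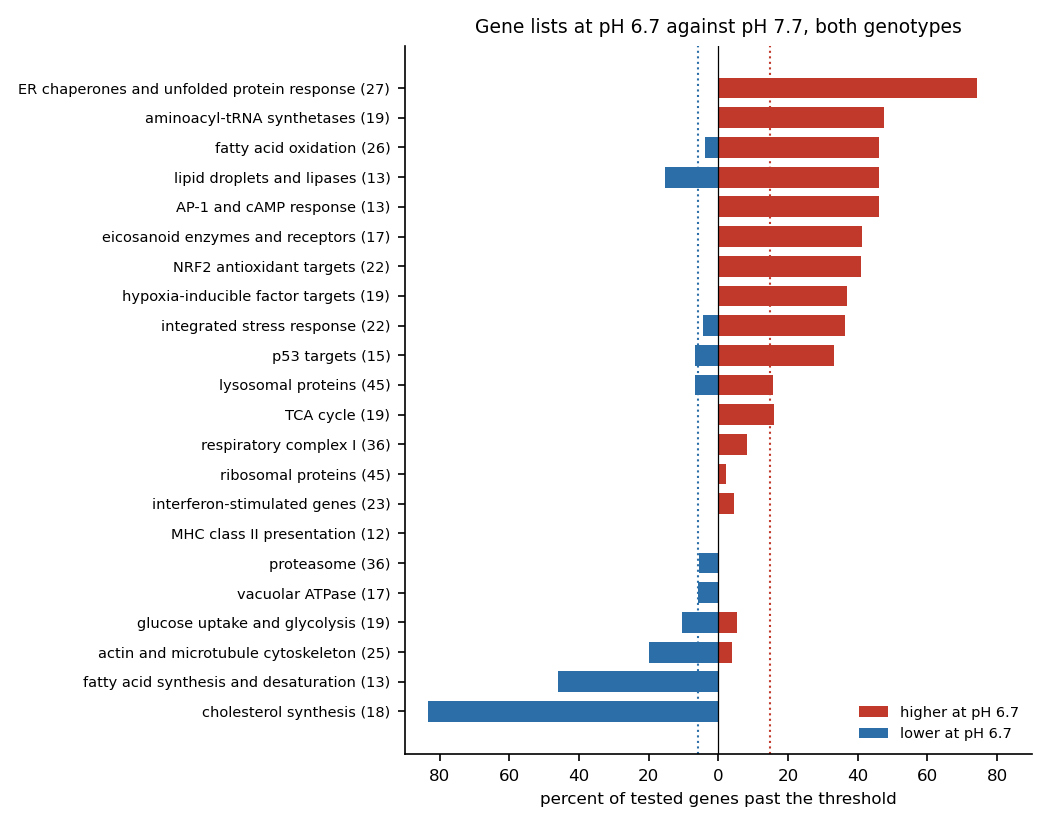
Percent of the tested genes of 22 lists (number tested in brackets) that rose (right) or fell (left) at pH 6.7 at an adjusted p under 0.05; dotted lines mark 14.7% and 5.94% of all tested genes. ER chaperones reached 74.1% higher and cholesterol synthesis 83.3% lower.

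Inflammatory genes rose in small counts that single arrays decided. Of 16 tested cytokines and receptors 4 rose (25%, against 14.7% of all tested genes) and 1 fell. With any 1 array left out 2 to 4 rose, and when the arrays were quantile normalised again 2 rose and 2 fell. A count of 2 lies below the share of all tested genes. By the brightest probe set 2 of 25 rose and 2 fell. Il1a, the alarmin interleukin-1 alpha, lay at 7.0, 7.28 and 7.44 at pH 6.7, against 6.25, 6.50 and 6.70 at pH 7.7 (0.73 ± 0.08, adjusted p = 8.13e-06), with no overlap. Csf1, the macrophage growth factor, fell by 0.69 on the log2 scale. Tnf had -0.52 ± 0.18 and did not pass (adjusted p = 0.0503), with -0.09 in KO and -0.95 in WT. Of 11 tested CC chemokines and receptors 1 rose (9.09%), Ccl22, a chemokine that draws regulatory T cells (0.74 ± 0.22, adjusted p = 0.0251). It missed the threshold without WT pH 6.7 replicate 2 (adjusted p up to 0.0523). With any 1 array left out, 0 to 2 of the 11 CC genes rose. Of 8 tested CXC chemokines and receptors 0 passed the limma threshold, with 3 at an unadjusted p under 0.05; the nearest was Pf4, platelet factor 4 (0.51 ± 0.21, adjusted p = 0.0954).

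Of 23 tested interferon-stimulated genes 1 rose (4.35% against 14.7% of all tested genes), Irf7, a regulator of interferon genes (0.88 ± 0.26, adjusted p = 0.0209), and without WT pH 6.7 replicate 1 a further 4 fell. Of 12 tested genes of MHC class II presentation 0 passed in limma, with 3 at an unadjusted p under 0.05, the costimulatory molecule Cd86 nearest (0.49 ± 0.17, adjusted p = 0.0538). The class II chain H2-Aa had -0.09 ± 0.19. The peptide transporter Tap1 rose by 0.47 (adjusted p = 0.00378), 1 of 8 tested genes of the immunoproteasome and class I loading that did so (12.5%), with 1 lower (12.5%). Of 16 NF-kB subunits and inhibitors 2 rose (12.5%) and 1 fell (6.25%), near the shares of all tested genes (14.7% and 5.94%). With any 1 array left out 1 to 2 rose and 0 to 2 fell. The feedback inhibitor Tnfaip3 was higher by 0.44 ± 0.11. Of 13 complement genes 0 rose and 2 fell (15.4%, and 1 to 3 genes with any 1 array left out), with the anaphylatoxin receptor C3ar1 lower in every acid array (-0.28 ± 0.06, adjusted p = 0.00229). Of 22 Fc and Toll-like receptors 2 rose (9.09%) and 1 fell (4.55%), both below the shares of all tested genes. The IgG receptor Fcgr4 rose (1.01 ± 0.22, adjusted p = 0.00331), as did Fcgr1 (0.92 ± 0.27), and the receptor of bacterial lipoproteins, Tlr2, fell (-0.58 ± 0.14). Ccl22, Irf7, Tap1, Tnfaip3, C3ar1, Fcgr4, Fcgr1 and Tlr2 did not pass by their brightest probe sets (adjusted p from 0.108 to 0.518).

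Genes of alternative activation and of lipid mediators rose in part. Of 13 tested genes of alternative activation 5 rose and 0 fell (38.5% against 14.7% of all tested genes, median 0.33), led by Arg1, and by the brightest probe set 1 of 16 rose. The inhibitory ligand Cd274 rose by 0.48 ± 0.11. Chil3, a chitinase-like marker of alternative activation, was not tested, with all arrays under the array median. The mannose receptor Mrc1 had 0.38 ± 0.26 (adjusted p = 0.326). Of 12 genes of arginine and polyamine metabolism 5 rose (41.7%) and 1 fell (8.33%, against 5.94% of all tested genes). By the brightest probe set 2 of 15 rose, against 1.75% of all genes in that setting. Oat, which passes ornithine on towards proline, rose by 0.45 ± 0.09, and Odc1, which turns it into putrescine, by 0.62 ± 0.15. By the brightest probe set 2 of 22 tested eicosanoid genes rose, against 1.75% of all genes in that setting. By the mean over probe sets, 7 of 17 rose and 0 fell (41.2%, median 0.21). Beside Ltc4s they included Ptges, the prostaglandin E synthase, at 4.34, 4.59 and 5.51 at pH 6.7, against 3.63, 3.82 and 4.45 at pH 7.7 (0.85 ± 0.15, adjusted p = 0.00057), and Alox5, which makes the precursor of leukotrienes (0.52 ± 0.10).

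Of 20 tested scavenger receptors 3 rose, near the 14.7% of all tested genes, and 4 fell, against 5.94% of all tested genes; by the brightest probe set 2 of 24 fell. Marco lay at 7.36, 7.70 and 8.24 at pH 6.7, against 5.42, 6.70 and 7.20 at pH 7.7 (1.15 ± 0.19, adjusted p = 0.000429), and Mertk, a receptor for dying cells, rose by 0.34. Colec12, a collectin that binds oxidised lipoprotein, fell without overlap (-0.52 ± 0.10, adjusted p = 0.000975). Of 23 genes listed as C-type lectins and SLAM receptors 5 rose (21.7%) and 3 fell (13%). The 3 were Slamf8, Clec5a and Scimp, an adaptor that was listed with these receptors. Without KO pH 7.7 replicate 1 or KO pH 6.7 replicate 4, 3 rose, and without WT pH 7.7 replicate 2, 5 fell. Clec9a, a receptor for dead cells, rose by 0.85 ± 0.16. Mertk, Clec9a, Cd274, Odc1 and Alox5 did not pass by the brightest probe set (adjusted p from 0.0577 to 0.388).

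Genes that sense or move protons changed in a few members. Of 4 tested proton-sensing receptors and channels 1 rose (25%, against 14.7% of all tested genes). It was the cation channel Trpv4, at 4.51, 4.84 and 4.96 at pH 6.7, against 4.01, 4.12 and 4.55 at pH 7.7 (0.62 ± 0.09, adjusted p = 0.000151). Gpr65, another proton-sensing receptor, had 0.16 ± 0.10 and did not pass (adjusted p = 0.257). Of 9 transporters and carbonic anhydrases 2 rose (22.2%, against 14.7% of all tested genes) and 1 fell (11.1%, against 5.94%). Those that rose were Car6 and the endosomal sodium-proton exchanger Slc9a9, which lay at 3.77, 4.76 and 5.69 at pH 6.7, against 2.88, 3.64 and 4.41 at pH 7.7 (1.12 ± 0.24, adjusted p = 0.00281). Slc4a2, which exchanges chloride for bicarbonate, was lower in every acid array, at 3.05, 3.21 and 3.40, against 3.40, 3.68 and 3.80 at pH 7.7 (-0.44 ± 0.07, adjusted p = 0.000216). Of 17 subunits of the vacuolar proton pump 0 rose and 1 fell (5.88%, near the share of all tested genes, median -0.05). Trpv4 did not pass by its brightest probe set (adjusted p = 0.776).

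Lysosomal genes as a list stood near the level of all genes, with 7 of 45 tested higher (15.6% against 14.7%) and 3 lower (median 0.03). Without KO pH 7.7 replicate 3, KO pH 6.7 replicate 4 or WT pH 7.7 replicate 4, 1 fell. Scarb2, the membrane protein that carries glucocerebrosidase to lysosomes, lay at 7.61, 7.66 and 8.13 at pH 6.7, against 6.91, 7.0 and 7.21 at pH 7.7 (0.70 ± 0.08, adjusted p = 1.12e-05). The beta-glucuronidase Gusb lay at 6.02, 6.31 and 6.53 at pH 6.7, against 6.56, 6.74 and 6.86 at pH 7.7 (-0.46 ± 0.08), so these members moved in opposite directions without overlap. The E-box CACGTG, the site of factors that govern lysosomal genes, was found in 13 of 41 lysosomal promoters (31.7%) and in 1 of the 8 that changed (12.5%), against 12.6% of all tested genes with a window. Of 24 autophagy and mTORC1 genes 4 rose (16.7%) and 1 fell (4.17%), near the shares of all tested genes, with the cargo receptor Sqstm1 higher by 0.33. Gusb and Sqstm1 did not pass by the brightest probe set (adjusted p of 0.0695 and 0.127).

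Adhesion and cytoskeletal genes fell in part. Of 25 tested genes of the cytoskeleton 5 fell (20%, against 5.94% of all tested genes) and 1 rose (4%), and 3 fell without KO pH 6.7 replicate 2. By the brightest probe set 1 of 29 fell and 0 rose, against 1.58% lower among all genes in that setting. Actn1, the actin crosslinker alpha-actinin, lay at 4.99, 5.28 and 5.75 at pH 6.7, against 5.77, 6.08 and 6.30 at pH 7.7 (-0.76 ± 0.10, adjusted p = 6.69e-05), with no overlap. Of 20 adhesion genes 5 fell (25%) and 2 rose (10%), with 2 to 5 lower when any 1 array was left out. In the brightest-probe-set values 1 of 29 fell and 1 rose. Alcam, a homophilic adhesion molecule, fell by 0.57 without overlap. Selp, P-selectin, lay at 5.31, 5.97 and 6.45 at pH 6.7, against 3.02, 3.96 and 5.40 at pH 7.7 (1.69 ± 0.27, adjusted p = 0.000332), overlapping by a narrow margin. Of 7 matrix genes 3 rose (42.9%, against 14.7% of all tested genes) and 1 fell (14.3%). By the brightest probe set 1 of 26 rose and 1 fell. Thrombospondin, Thbs1, lay at 8.71, 9.12 and 9.64 at pH 6.7, against 7.83, 8.59 and 8.98 at pH 7.7 (0.73 ± 0.17), and osteopontin, Spp1, lay at 3.75, 4.37 and 4.82 at pH 6.7, against 4.44, 5.23 and 5.95 at pH 7.7 (-0.94 ± 0.19).

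Of 17 matrix proteases and inhibitors 4 rose and 4 fell (23.5% each, against 14.7% higher and 5.94% lower among all tested genes), and 2 to 4 fell with any 1 array left out. By the brightest probe set 1 of 27 rose and 1 fell. The metalloproteinase Mmp19 rose by 0.54 ± 0.12. Of 15 genes of iron and heme 3 rose and 3 fell (20% each), and by the brightest probe set 0 of 20 rose and 2 fell. Slc11a1, the metal transporter of phagosomes, was higher in every acid array (0.37 ± 0.06, adjusted p = 0.000234) but not past the threshold by its brightest probe set (adjusted p = 0.652). Of 11 proliferation genes 1 rose (9.09%), the cell cycle inhibitor Cdkn2c (0.35 ± 0.10, adjusted p = 0.0236, and 0.497 by its brightest probe set).

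Of 14 tested macrophage identity genes 3 rose and 1 fell, 21.4% higher against 14.7% of all tested genes, with a median of -0.04. Mertk and Fcgr1 rose, Adgre1, a surface receptor widely used as a macrophage marker, rose (0.36 ± 0.11, adjusted p = 0.0242), and the galectin Lgals3 fell (-0.19 ± 0.06, adjusted p = 0.0228). These 4 did not pass by their brightest probe sets (adjusted p from 0.0592 to 0.388). Without WT pH 7.7 replicate 2, 3 of the 14 fell, and without WT pH 6.7 replicate 1, 2 fell. The summed linear intensity of the 14 was 5900 to 6420 over the arrays at pH 6.7, against 5787 to 6897 at pH 7.7. Csf1r had -0.01, Lyz2 -0.01 and Cd68 -0.06, none past the threshold. Of 16 genes of large peritoneal macrophages 2 rose (12.5%) and 1 fell (6.25%), near the shares of all tested genes, and 0 fell when any of 8 of the arrays was left out. Ltbp1, a binding protein of latent TGF-beta, lay at 6.58, 6.96 and 7.23 at pH 6.7, against 5.43, 5.98 and 6.59 at pH 7.7 (0.97 ± 0.13), and Gata6 had 0.11 (adjusted p = 0.6). Of 6 genes of small peritoneal macrophages and monocytes 1 rose and 1 fell (16.7% each, against 14.7% higher and 5.94% lower among all tested genes). The one that rose was the lectin Cd209a (0.76 ± 0.22, adjusted p = 0.0175, and 0.463 by its brightest probe set).

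Markers of other cell types were mostly under the array median. Of 12 dendritic cell markers 5 were tested and 2 rose (40%, against 14.7% of all tested genes), Cd209a and Clec9a. Neither passed by its brightest probe set (adjusted p of 0.463 and 0.168), and 0 of the 11 markers tested in that setting rose. The summed intensity of the 12 was 219 to 324 at pH 6.7, against 165 to 243 at pH 7.7. The lineage genes Flt3 and Zbtb46 averaged 1.92 and 2.76 over the 16 arrays. Of 11 B cell markers 5 were tested and 1 fell (20%, against 5.94% of all tested genes). Their sums were 99.8 to 192 at pH 6.7, against 94.7 to 169 at pH 7.7. Of 14 mast cell markers 3 were tested and 0 passed in limma, with sums of 64.6 to 284 at pH 6.7, against 59.3 to 140 at pH 7.7. The T and NK cell sums were 164 to 243 at pH 6.7, against 193 to 300 at pH 7.7 (1 of 15 tested), and those of neutrophils 418 to 595 at pH 6.7, against 439 to 676 at pH 7.7 (3 of 13 tested). Eosinophil markers (0 of 7 tested) summed to 20.9 to 29.9 at pH 6.7, against 22.5 to 36 at pH 7.7. Markers of mesothelium and fibroblasts (1 of 19 tested) summed to 75.4 to 93.4 at pH 6.7, against 85.6 to 103 at pH 7.7. None of the tested T and NK, neutrophil or mesothelial markers passed, with 1 of each list at an unadjusted p under 0.05, and 0 of the mast cell markers. The part of other cells in the changes was not tested.

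Few genes passed the test for a different acid change between the genotypes. The interaction, the change in KO minus the change in WT, passed for 7 genes (0.0797%). At an unadjusted p under 0.05 there were 1164 of the 8783 tested genes, a larger share than the 0.05 that chance alone gives. Of these 7, 2 also passed in the shared response, and with single arrays left out Zc3h12c missed that threshold in 9 of 16 cases and Gm15448 in 10. Neither passed in the shared response by its brightest probe set (adjusted p of 0.582 and 0.161). Zc3h12c, a zinc-finger gene, lay at 5.01, 5.37 and 5.66 at pH 6.7, against 5.38, 5.67 and 5.91 at pH 7.7, with a log2 fold change of 0.06 in KO and -0.68 in WT (interaction 0.74 ± 0.12, adjusted p = 0.0255). The predicted gene Gm15448 had 2.74 in KO and -0.22 in WT (interaction 2.96 ± 0.54, adjusted p = 0.0484). The interaction itself was missed in 7 of these 16 cases for Zc3h12c (adjusted p up to 0.0772) and in 12 for Gm15448 (up to 0.119). Among the genes with the largest shared change, Arg1 (interaction -1.85, adjusted p = 0.148), Pdk4 (-1.62, adjusted p = 0.249) and Selp (-1.72, adjusted p = 0.0846) were each larger in WT by value, and none passed. Hmgb2, a chromatin protein, had 1.27 in KO and 0.39 in WT and also did not pass (adjusted p = 0.0917). Without WT pH 7.7 replicate 1 the interaction passed for 23 genes and without WT pH 7.7 replicate 2 for 16. By the brightest probe set it passed for 91 genes, and for 17 in a fit that took replicate numbers as blocks. In simulated data the interaction test found 77% of differences of 1 on the log2 scale and 97% of those of 2. Smaller differences were not simulated, while the median size of the shared calls was 0.36. The count of 7 therefore does not show that the response was equal in both genotypes.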

How the data were processed

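RNA of cultured macrophages was measured on 16 Affymetrix arrays. The authors deposited 1 table of normalised intensity on a linear scale, for which the submitters' processing notes name RMA and R 2.15.2. It holds 241576 probe sets, of which 213361 carried 1 gene symbol in the platform annotation, and probe sets with several symbols (5107) or none listed (23108) were left out. No replicate pair held identical values. The value of a gene is the mean of log2 intensity over all its probe sets, with a median of 8 probe sets per gene, and symbols were updated through RefSeq (2354 of 20893).

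Genes with a mean over the 16 arrays above that of the median probe set were tested with limma 3.58.1 (R 4.3.3), with pH and genotype as terms and Benjamini-Hochberg adjustment at 0.05. Changes within a genotype and the interaction came from a model of 4 group means. The procedure was tested on simulated data. Alternatives were the filter, the summary of probe sets, the scaling, the variance model, replicate blocks and leaving out each array. Replicate numbers were not taken as pairs.

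Promoters came from RefSeq (GRCm38.p6). Named genes are the 12 largest increases and decreases without overlap, up to 4 members of a list with the smallest p, and the 6 smallest interaction p among shared calls; the others were named with their values known. The members and all 57 gene lists were chosen with earlier results of these data known. The targeted gene is not reported here.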

Additional observations from a re-analysis of the deposited data

Results flagged for a closer look

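Single arrays stood far from the other 3 of their group in 29 of 644 groups of 4 examined for the named genes (4.5%), and chance alone marks about 1 in 20 groups. WT pH 7.7 replicate 2, the array with the lowest correlations, held 6 of these: it was lowest for Ern1 (4.51), Pdia6 (6.42), Edem1 (5.98), Pdk1 (3.76), Ldha (7.09) and Gm15448 (3.27). KO pH 6.7 replicate 3 held 5, being lowest for Arg1 (6.48), Phyhd1 (5.13), Pdk1 (4.43) and Nupr1 (6.89) and highest for Edem1 (6.61). The other KO arrays at pH 6.7 with such a value were replicate 1 for Gapdh (9.25, lowest), replicate 2 for Ddit3 (7.20, highest) and replicate 4 for C3ar1 (8.76, lowest) and Cd209a (5.34, lowest). Among KO arrays at pH 7.7, replicate 3 was highest for Alg12 (4.21) and Sesn2 (3.17) and lowest for Gpr65 (6.75), and replicate 4 was lowest for Ltc4s (3.82) and highest for Marco (7.20) and Fcgr1 (4.31). Among WT arrays at pH 6.7, replicate 1 was highest for Gata6 (5.98) and Tap1 (5.53) and lowest for Xbp1 (5.21), replicate 3 was lowest for Sc5d (5.88), and replicate 4 was lowest for Dnajb9 (6.00) and Thbs1 (9.13). Of the remaining WT arrays at pH 7.7, replicate 1 was lowest for Per1 (4.98) and replicate 3 highest for Fasn (5.01).

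The acid change differed between the genotypes by the limma interaction in Zc3h12c, by 0.74 on the log2 scale (KO minus WT), and in Gm15448, by 2.96.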

How the results depend on the processing

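Against 1810 calls (1288 higher and 522 lower at pH 6.7), a filter at the 75th percentile, which tests fewer genes, gave 1095 (797 and 298). The brightest probe set gave 486 (255 and 231) and the median over probe sets 1099 (804 and 295); the cause was not tested. With any 1 array left out, 1538 to 1866 genes passed, and no gene called in both fits changed direction under any setting. Of the 132 named genes called, 66 also passed by the brightest probe set and 116 by the median over probe sets, and 125 to 132 under every other setting except the stricter filter, where all 77 tested did.

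The fit to the 8 WT arrays alone called 442 genes within WT, against 916. The interaction passed for 91 genes by the brightest probe set, and for 2 to 23 with any 1 array left out, against 7. For deviations from the group mean, same-numbered arrays of different groups had correlations of -0.25 to 0.22, 3 of 24 above 0.1. Their median was -0.02, against -0.01 for arrays of other numbers. Such correlations cannot tell whether equal numbers share a mouse or a day, and the labels do not state it. With the replicate block 1707 genes passed in the shared response and 17 in the interaction, and with a replicate block within genotype 1434. Gene list counts without WT pH 7.7 replicate 2 were added after seeing the data: 16 cholesterol genes fell, and 19 ER genes and 10 of fatty acid oxidation rose. Brightness over background was not measured, which limits dim genes.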
